A study of Homo sapiens with 6 samples.

Results

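The genes described are 10 G-protein-coupled receptors that direct lymphocyte traffic: the chemokine receptors CCR4, CCR7, CCR8, CCR9, CXCR3, CXCR4 and CXCR5, the sphingosine 1-phosphate receptors S1PR1 and S1PR4, and the oxysterol receptor GPR183. They were selected by gene symbol from the 78932 gene identifiers in the files, and the set was drawn up because CCR9 halved between the groups compared here. The values of that comparison are therefore a description of the receptors, and no p-value is given for them. The data are read counts from RNA sequencing of Karpas-45, an established human T-lineage leukemia line that the labels list as leukemic blasts from bone marrow. The MEF2C hairpin group (shMEF2CKD2, genotype MEF2C KD) carried a lentiviral, GFP-linked short hairpin RNA against MEF2C, a MADS-box transcription factor, and the stated protocol sorted GFP-positive cells 120 hours after transduction. The scramble group is labelled a scramble control with genotype WT. The labels describe transduction and sorting for the MEF2C vector only, so whether the scramble cells were transduced, sorted and timed alike is not stated, and any difference in handling cannot be told apart from the difference between the groups. The labels name no further treatment. Each group held 3 technical replicates of 1 cell line, and a single hairpin was compared with a single control.

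Chemokine receptors couple mainly to Gi proteins and turn a gradient of a chemokine into directed movement and integrin activation. CCR9 answers to CCL25, which thymic and small-intestinal epithelium make, and it is carried by most immature thymocytes and by gut-homing T cells. CXCR4 answers to CXCL12 and holds leukemic cells and T-cell progenitors in bone marrow and thymus, whereas S1PR1 guides mature thymocytes out of the thymus toward sphingosine 1-phosphate in blood.

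The sequences before the transcription starts of CCR9 and S1PR1 are shown because these receptors had the lowest log2 fold changes among the 9 receptors tested. The capitals mark 2 short motifs, searched on both strands: CAGNTG, an E-box form that E proteins such as the TCF3 product bind, and CACCC, a form that Kruppel-like factors bind. CCR9 has 2 annotated starts in RefSeq on GRCh38.p14, and each window holds the 250 bases before a start on the plus strand. The first CCR9 window is chr3:45886293-45886542, the second chr3:45893967-45894216, and the S1PR1 window chr1:101236769-101237018.
CCR9, first start: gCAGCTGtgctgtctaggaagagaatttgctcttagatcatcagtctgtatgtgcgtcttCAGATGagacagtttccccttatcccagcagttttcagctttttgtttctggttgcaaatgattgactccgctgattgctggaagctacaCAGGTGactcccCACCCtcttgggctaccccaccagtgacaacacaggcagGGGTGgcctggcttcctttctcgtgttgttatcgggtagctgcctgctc
CCR9, second start: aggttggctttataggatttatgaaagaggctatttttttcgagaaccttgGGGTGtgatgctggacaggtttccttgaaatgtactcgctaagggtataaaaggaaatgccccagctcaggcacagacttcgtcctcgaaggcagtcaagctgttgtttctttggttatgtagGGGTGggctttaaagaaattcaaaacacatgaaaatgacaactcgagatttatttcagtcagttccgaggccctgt
S1PR1: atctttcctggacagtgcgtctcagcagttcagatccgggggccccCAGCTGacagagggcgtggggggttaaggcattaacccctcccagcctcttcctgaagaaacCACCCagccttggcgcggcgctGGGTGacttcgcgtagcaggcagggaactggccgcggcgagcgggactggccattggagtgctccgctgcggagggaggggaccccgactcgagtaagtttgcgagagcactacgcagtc

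The window at the first CCR9 start held 3 E-box matches and 2 CACCC matches. The window at the second start held no E-box match and 2 CACCC matches, and the S1PR1 window held 1 and 2. Of all 35116 promoter windows of this length in the table, 42.5% held the E-box and 54.7% the CACCC form. The MEF2 motif, CTA and TAG with any 4 bases between them, was in 2.36% of all windows and in none of the 11 windows that the table gives for 8 of the receptors (CCR7 and CCR8 have no entry). No 2 different motifs overlapped in the 3 windows shown. A match describes letters in a window and is not evidence of binding.

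MEF2C itself received 2, 0 and 0 reads in MEF2C hairpin replicates 1 to 3, against 2, 1 and 0 reads in scramble replicates 1 to 3. All these libraries lay at or under the floor of 3 reads, so the targeted gene could not check the labels. Gene totals ran from 45560303 to 97077335 reads, and 3 reads corresponded to between 0.0309 and 0.0658 CPM (reads scaled by library size). T-lineage markers were abundant: the summed level of 9 of them was 2467 to 2515 CPM in MEF2C hairpin and 2361 to 2421 CPM in scramble libraries. The 4 B-lineage markers summed to at most 3.30 CPM and the 4 NK markers to at most 0.867 CPM in any library, with PAX5, MS4A1 and NCAM1 at or under the floor throughout. Of the 9 T-lineage markers 7 rose, CD5 and CD7 most, and of 3 markers of mature migratory T cells CD69 and IL7R rose, where 13.5% of all tested genes rose. That share includes 4632 genes with a mean under 1 CPM, of which only 278 were called in either direction. The CD2 call, 1 of the 7, was lost in 5 of 13 alternatives (adjusted p by edgeR, DESeq2 or limma-voom up to 0.277), and that of IL7R in 3 of 12 (adjusted p up to 0.179). GPC3, 1 of 3 stromal and embryonic kidney markers, also rose, at 0.660 CPM in MEF2C hairpin and 0.341 CPM in scramble libraries, a call lost in 5 of 12 alternatives (adjusted p up to 0.189). The part of these differences in the receptors' values was not tested. The 5 myeloid markers summed to 1.64 to 2.54 CPM in MEF2C hairpin and 1.78 to 2.13 CPM in scramble libraries. The 2 erythroid markers summed to 0.573 to 1.58 CPM in MEF2C hairpin and up to 5.69 CPM in scramble libraries. Reads that aligned to more than 1 place took 16.1% of MEF2C hairpin replicate 3, and between 3.56% and 6.86% of the other 5 libraries.

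Expression of the receptors spanned a wide range, and CXCR4 and CCR9 stood far above the rest. On the scale of RPKM (reads per kilobase of merged exon, scaled by library size), CXCR4 had a level of 293 ± 2.26 in MEF2C hairpin and 275 ± 5.59 in scramble libraries (SD, n = 3 each). CCR9 had a level of 11.6 ± 0.151 in MEF2C hairpin and 24.9 ± 1.10 in scramble libraries (SD, n = 3 each). Over all 6 libraries CXCR4 ranked 65 and CCR9 ranked 2542 by level per length among 12162 tested protein-coding genes. CCR8 came next, with 2.27 ± 0.132 in MEF2C hairpin and 1.76 ± 0.151 in scramble libraries (SD, n = 3 each), and ranked 8700.

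The other receptors lay under 0.3 RPKM on average in both groups. In descending order over all libraries they were CXCR3, CCR7, CXCR5, S1PR4, CCR4, S1PR1 and GPR183. CXCR4, CCR9, CCR8 and CXCR3 held ranks 1 to 4 in both groups, and the library ranges of neighbours among them did not overlap. Below CXCR3 the ranges of neighbours overlapped in scramble libraries down to S1PR1, so that order is not resolved. In MEF2C hairpin libraries they overlapped from CXCR3 down to CCR4 and again between S1PR1 and GPR183. S1PR4 held rank 5 in MEF2C hairpin libraries and rank 8 in scramble libraries, and CCR7 ranks 7 and 5. Lengths of the longest transcript in place of merged exons left all 10 ranks as they were. For CXCR5 both lengths are 4431 bases, so this check could not change its level. Exons of BCL9L cover 88.6% of those bases, so the level of CXCR5 and its rank relative to CXCR3 and the receptors below are uncertain.

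**Figure D1:**
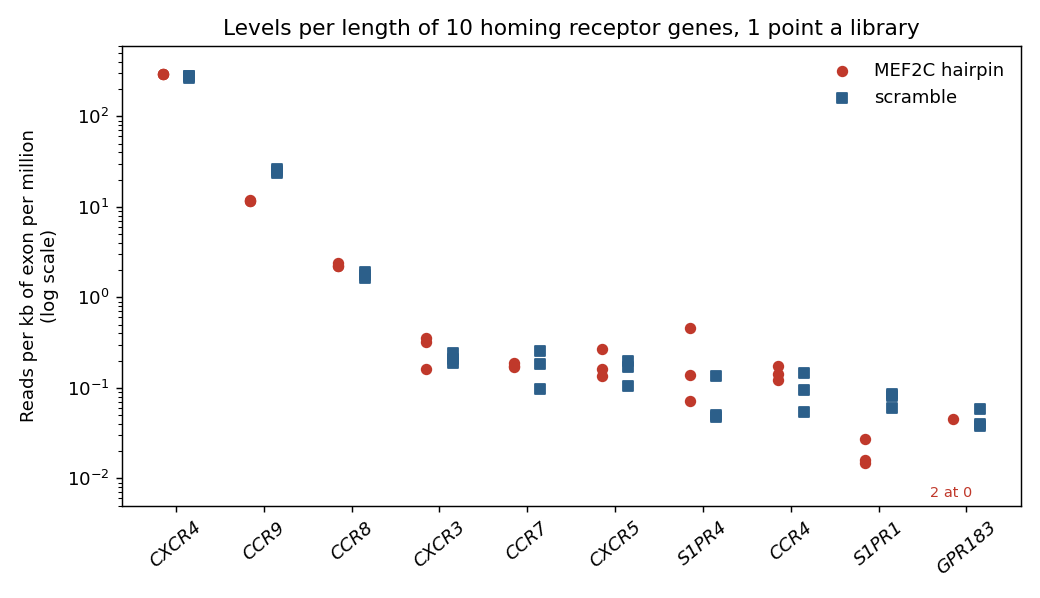
Level per length of the 10 receptor genes, in RPKM on a log scale, with 1 point for each library (MEF2C hairpin as circles on the left of each pair, scramble as squares). CXCR4 and CCR9 lie above all others, and GPR183 has 2 MEF2C hairpin libraries at 0.

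CCR9 (ENSG00000173585.18, plus strand of chromosome 3 from 45886504 to 45903177 in GRCh38) was the receptor on which the set was built. It had 33.1, 32.6 and 32.2 CPM in MEF2C hairpin replicates 1 to 3, against 70.3, 73.0 and 66.8 CPM in scramble replicates 1 to 3. All MEF2C hairpin libraries were below all scramble libraries, and the gap between the groups was many times the range within either. The mean was 0.466 of the scramble mean, a log2 fold change of -1.10 (SE 0.0391). Among all tested genes, 72 had a log2 fold change at or below that of CCR9, itself included, and 2 of these had a mean of at least 5 CPM. Raw counts behind the values were 1964, 3212 and 1673 reads in MEF2C hairpin and 4386, 3256 and 4005 reads in scramble libraries. Bulk RNA cannot tell fewer CCR9-positive cells from less CCR9 RNA in each cell. No exon of another annotated gene overlaps those of CCR9.

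CXCR4 (ENSG00000121966.8, chromosome 2), the CXCL12 receptor, moved slightly the other way. It had 652, 657 and 647 CPM in MEF2C hairpin replicates 1 to 3, against 619, 618 and 597 CPM in scramble replicates 1 to 3. The groups did not overlap, and the log2 fold change was 0.09 (SE 0.0198), a mean 1.07 times that of scramble libraries. The balance between the receptors shifted accordingly: per length, the CXCR4 level was 24.9, 25.5 and 25.4 times the CCR9 level in MEF2C hairpin replicates 1 to 3, against 11.1, 10.7 and 11.3 times in scramble replicates 1 to 3. The ratio was higher in all MEF2C hairpin libraries than in any scramble library. Since CXCR4 changed little, this mostly restates the fall of CCR9 for which the set was drawn up.

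**Figure D2:**
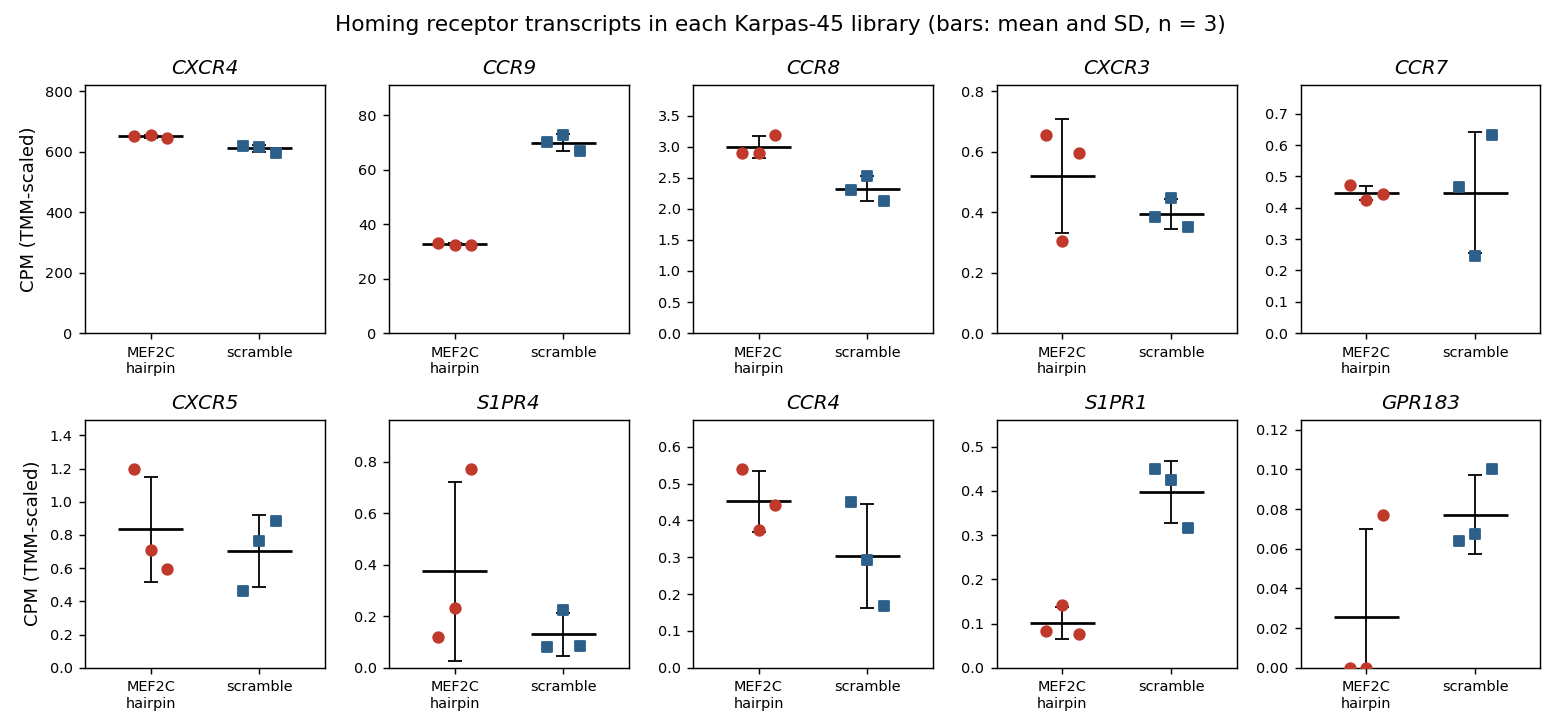
CPM of each receptor in each library (MEF2C hairpin left, scramble right), with the mean as a line and the SD as an error bar (n = 3 each) and a separate axis from 0 for each gene. The groups are apart for CCR9, CXCR4, CCR8 and S1PR1, whereas the other 6 receptors overlap.

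The lipid receptors of this set were all near the limit of detection, unlike some outside it, such as S1PR5 and PTGER2. S1PR1 (ENSG00000170989.10, chromosome 1), which responds to sphingosine 1-phosphate and drives egress of lymphocytes, had 0.0842, 0.142 and 0.0771 CPM in MEF2C hairpin replicates 1 to 3, against 0.449, 0.426 and 0.317 CPM in scramble replicates 1 to 3. Every MEF2C hairpin library was below every scramble library, at 5, 14 and 4 reads in MEF2C hairpin and 28, 19 and 19 reads in scramble libraries. The log2 fold change was -1.88 (SE 0.515). Pooled over the libraries of a group, S1PR1 had 0.111 CPM in MEF2C hairpin (exact Poisson 95% interval 0.0705 to 0.167) and 0.389 CPM in scramble libraries (0.301 to 0.495).

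S1PR4 (ENSG00000125910.6, chromosome 19), a relative of S1PR1 found mainly on blood cells, had 0.118, 0.233 and 0.771 CPM in MEF2C hairpin replicates 1 to 3, against 0.0802, 0.224 and 0.0834 CPM in scramble replicates 1 to 3. The high MEF2C hairpin value came from replicate 3, the library with the largest share of reads aligned to more than 1 place, and its part in the result was not tested. The groups overlapped, and the log2 fold change of 1.53 (SE 0.612) was 0.55 without that replicate. GPR183 (ENSG00000169508.7, chromosome 13), which senses oxysterols and positions lymphocytes in follicles, had 0, 0 and 4 reads in MEF2C hairpin replicates 1 to 3, against 4, 3 and 6 reads in scramble replicates 1 to 3. It was the only receptor of the 10 that the filter on low counts removed. Pooled, it had 0.0193 CPM in MEF2C hairpin (exact Poisson 95% interval 0.00527 to 0.0495) and 0.0767 CPM in scramble libraries (0.0408 to 0.131).

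CCR8 (ENSG00000179934.7, chromosome 3), the CCL1 receptor of regulatory and skin-homing T cells, had 2.90, 2.90 and 3.20 CPM in MEF2C hairpin replicates 1 to 3, against 2.31, 2.53 and 2.14 CPM in scramble replicates 1 to 3. The groups did not overlap, with a log2 fold change of 0.37 (SE 0.149) that did not pass the threshold. CCR4 (ENSG00000183813.8, chromosome 3), which binds CCL17 and CCL22, had 0.539, 0.375 and 0.443 CPM in MEF2C hairpin and 0.449, 0.291 and 0.167 CPM in scramble libraries. Its groups overlapped.

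CCR7 (ENSG00000126353.4, chromosome 17), which brings T cells into lymph nodes along CCL19 and CCL21, had 0.472, 0.426 and 0.443 CPM in MEF2C hairpin and 0.465, 0.247 and 0.634 CPM in scramble libraries. The scramble libraries lay on both sides of the MEF2C hairpin ones. CXCR3 (ENSG00000186810.8, chromosome X), the receptor of interferon-induced chemokines on effector T cells, had 0.657, 0.304 and 0.597 CPM in MEF2C hairpin and 0.385, 0.448 and 0.350 CPM in scramble libraries. CXCR5 (ENSG00000160683.5, chromosome 11), the CXCL13 receptor of follicular cells, had 1.20, 0.709 and 0.597 CPM in MEF2C hairpin and 0.465, 0.762 and 0.884 CPM in scramble libraries. Exons of BCL9L cover 88.6% of the exonic bases of CXCR5, so the reads counted for CXCR5 are uncertain. BCL9L itself rose (log2 fold change 0.61, adjusted p by edgeR = 2.90e-12), and its part in the CXCR5 values was not tested. The groups overlapped for CXCR3 and CXCR5. The log2 fold changes were 0.56 for CCR4 (SE 0.417), -0.03 for CCR7 (SE 0.378), 0.37 for CXCR3 (SE 0.387) and 0.25 for CXCR5 (SE 0.303). None passed the threshold, and the direction for CCR7 and CXCR5 turned in some alternatives.

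Of the 10 receptors 9 were tested, and edgeR's quasi-likelihood test called CXCR4 higher and CCR9 and S1PR1 lower at an adjusted p of 0.05 over all genes. Of all tested genes 13.5% were called higher and 15.3% lower, 28.8% in all. The groups were apart in CPM for 4 of the 9, where 39.9% of all tested genes were. The median log2 fold change of the 9 was 0.25, against 0.00 over all tested genes. Of the 9, 6 had a mean under 1 CPM, and among all 4632 tested genes at that level 278 were called and 850 had groups apart. Since the comparison served to draw up the set, nothing is read from these counts.

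The 3' UTRs of the receptors were searched for the 7-base complement of the hairpin's seed, and the S1PR1 site is shown as the match in a receptor called lower. The sources used here do not say which strand the cells load, so both were tried. GGAATGA, which pairs with the seed of the strand antisense to the stated target, was in the 3' UTR of 10.2% of 12053 tested genes. Among the receptors S1PR1 held 1 match and the other 9 none, CCR9 with its 1279 bases included. TCATTGG, for the opposite strand, was in 8.71% of genes and, among the receptors, in GPR183 once. The S1PR1 site lies at chr1:101240659-101240679 on the plus strand, and the capitals mark the 7 matching bases.
S1PR1 site: gagctggggttgtGGAATGAt

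Aligned at these bases, the site shares 10 of its 21 bases with the target. The 7 marked bases are among these 10 by the way the site was found. A match of this kind is a description and does not show that the hairpin acts on S1PR1.

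The tested genes around CCR9 had log2 fold changes between -0.58 and 0.08. On chromosome 3, 12 other protein-coding genes lie within 500 kb, and 7 were tested. Of these, LZTFL1 and SACM1L fell and none rose, where 28.8% of all tested genes were called. LZTFL1, a regulator of ciliary trafficking that overlaps the CCR9 locus on the minus strand (45823316 to 45916042), had 337 ± 6.13 CPM in MEF2C hairpin and 373 ± 10.9 CPM in scramble libraries (SD, n = 3 each). Its log2 fold change was -0.15 (SE 0.0224; adjusted p by edgeR = 2.39e-06). CCR9 lies within the span of LZTFL1 with no shared exon, and the sources used here do not give the strand setting of the counting.

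SACM1L, a phosphoinositide phosphatase, had 159 ± 2.73 CPM in MEF2C hairpin and 170 ± 5.85 CPM in scramble libraries (SD, n = 3 each), with a fold change of -0.10 on the log2 scale (SE 0.0257, adjusted p by edgeR = 0.00236). SLC6A20, an amino acid transporter, had 53.6 ± 1.49 CPM in MEF2C hairpin and 51.4 ± 2.23 CPM in scramble libraries (SD, n = 3 each; adjusted p by edgeR = 0.249). LIMD1 and LARS2 had log2 fold changes of -0.02 and 0.01. CXCR6 and FYCO1, named after their values were seen, had -0.58 (SE 0.407) and 0.08 (SE 0.0469), and neither passed. The chemokine receptor genes XCR1, CCR3, CCR1 and CCR2 of the same cluster had at most 1 read in any library.

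**Figure D3:**
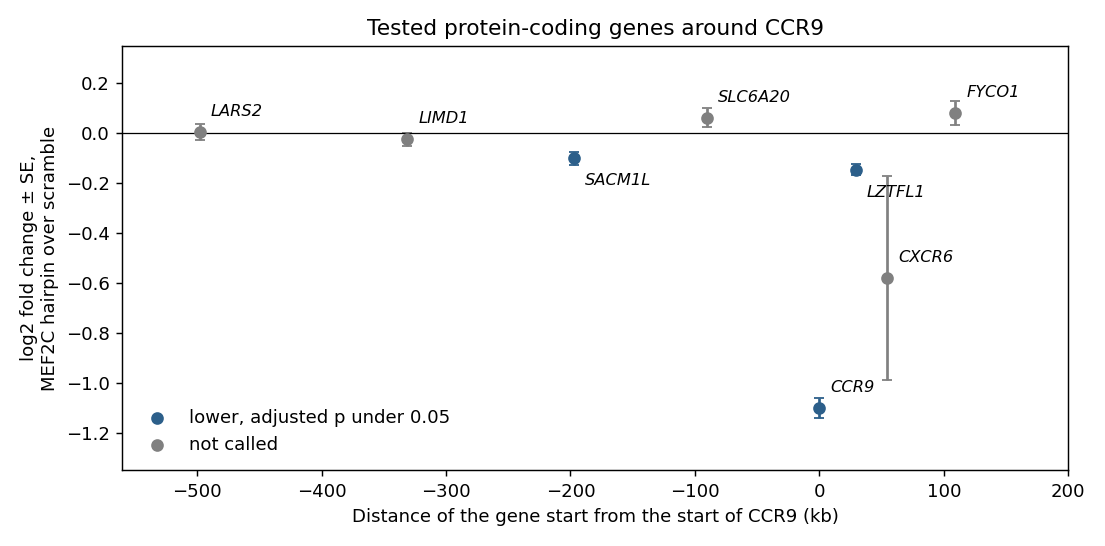
Log2 fold change (MEF2C hairpin over scramble) with SE of the tested protein-coding genes around CCR9, by the distance in kb of each gene's start from that of CCR9. CCR9 lies at -1.10, whereas LZTFL1 and SACM1L lie at -0.15 and -0.10 and the uncalled CXCR6 at -0.58 with a wide error.

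The genes whose log2 CPM followed CCR9 most closely over the 6 libraries, among 9454 other coding genes of at least 5 CPM, were TRIB3, VIM, NSUN2, SLC7A5 and PRPF31. Their Pearson correlations with CCR9 lay between 0.9987 and 0.9999, given as a description over 6 libraries that fall into 2 groups and from which all genes were read. TRIB3, a stress-induced pseudokinase, had 64.4, 64.3 and 63.6 CPM in MEF2C hairpin and 99.8, 101 and 96.5 CPM in scramble libraries. VIM, the filament protein vimentin, had 191, 190 and 189 CPM in MEF2C hairpin and 307, 312 and 303 CPM in scramble libraries. NSUN2, an RNA methyltransferase, SLC7A5, an amino acid transporter, and PRPF31, a splicing factor, had log2 fold changes of -0.46, -0.34 and -0.42. In each of these genes, as in CCR9, replicate 3 was the lowest and replicate 2 the highest of the scramble libraries. The genes were picked for following CCR9 over these libraries, so this order largely follows from the choice.

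Ligands of the receptors were nearly absent from these cells. Of 11 chemokine genes only CCL25, the CCR9 ligand, was tested, with 2.37, 1.37 and 2.10 CPM in MEF2C hairpin and 1.46, 1.28 and 1.72 CPM in scramble libraries. It did not pass (log2 fold change 0.36 with SE 0.203, adjusted p by edgeR = 0.199), and the groups overlapped. Of the others, 7 had 0 reads in all 6 libraries, CXCL12 and the CCR7 ligands CCL19 and CCL21 among them.

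Among other chemokine and lipid receptors, GPR174 and PTGER2 fell and S1PR5 rose. These were all the calls among 14 tested of 30 listed, where 28.8% of all tested genes were called, and the median log2 fold change was -0.02. GPR174, a lysophosphatidylserine receptor of lymphocytes, had 14.4, 14.6 and 14.5 CPM in MEF2C hairpin and 20.0, 19.8 and 20.1 CPM in scramble libraries. The groups were far apart, with a log2 fold change of -0.46 (SE 0.0582, adjusted p by edgeR = 5.92e-08). PTGER2, a prostaglandin E2 receptor, fell slightly, to 63.6 ± 1.07 CPM in MEF2C hairpin against 68.3 ± 1.79 CPM in scramble libraries (SD, n = 3 each; log2 fold change -0.10). S1PR5, the sphingosine 1-phosphate receptor known for NK-cell egress, rose to 10.7 ± 0.844 CPM in MEF2C hairpin against 8.96 ± 0.468 CPM in scramble libraries (SD, n = 3 each), with a fold change of 0.25 on the log2 scale (SE 0.0809). The S1PR5 call was lost in 3 alternatives, without MEF2C hairpin replicate 1 or scramble replicate 2 or 3, and that of PTGER2 without replicate 3 of either group.

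G-protein and motility genes that carry the receptors' signal went both ways. Of 30 listed, 28 were tested, 4 rose and 8 fell, with a median of -0.03, where 13.5% of all tested genes rose and 15.3% fell. These shares include 4632 genes with a mean under 1 CPM, of which only 278 were called. The G-protein subunits GNG2, GNAI3 and GNB1 fell, by 0.48, 0.30 and 0.21 on the log2 scale (SE 0.0297, 0.0266 and 0.0207). GNG2, a gamma subunit, had 77.5, 74.6 and 74.0 CPM in MEF2C hairpin and 105, 107 and 103 CPM in scramble libraries. GNAI2, another Gi alpha subunit, rose to 423 ± 4.47 CPM in MEF2C hairpin against 373 ± 12.5 CPM in scramble libraries (SD, n = 3 each; log2 fold change 0.18), and is named after its value was seen. Their p-values adjusted by edgeR were 1.58e-15, 1.78e-11, 1.75e-10 and 2.97e-08.

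Among genes that desensitise or recycle receptors, 19 of 20 were tested, 4 rose and 5 fell, with a median of 0.02. The shares over all tested genes were 13.5% higher and 15.3% lower, with only 278 called of the 4632 under a mean of 1 CPM. RGS10, which speeds the shut-off of G proteins, rose by a log2 fold change of 0.44 (SE 0.0620) and GRK2, a receptor kinase, by 0.16 (SE 0.0229), whereas USP14, a deubiquitinase that acts on CXCR4, fell by 0.18 (SE 0.0251). The p-values adjusted by edgeR were 4.73e-07, 5.77e-07 and 5.78e-07. The widest changes were those of ARRB1 and RGS16, named after their values were seen. ARRB1, which encodes beta-arrestin 1, had 8.35, 7.07 and 6.03 CPM in MEF2C hairpin and 2.39, 1.64 and 3.35 CPM in scramble libraries, a log2 fold change of 1.52 (SE 0.201, adjusted p by edgeR = 0.000106). RGS16, a G-protein shut-off gene like RGS10, had 0.876, 1.52 and 1.58 CPM in MEF2C hairpin and 1.88, 3.21 and 2.54 CPM in scramble libraries (log2 fold change -0.92 with SE 0.208, adjusted p by edgeR = 0.000747). RGS1 averaged 0.0760 CPM in MEF2C hairpin and 0.0163 CPM in scramble libraries and was not tested.

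Enzymes and transporters of sphingosine 1-phosphate and oxysterols gave 1 higher and 1 lower of 13 tested among 16, with a median of -0.05. Of all tested genes 28.8% were called. SPHK2, a sphingosine kinase, rose by 0.18 (SE 0.0406, adjusted p by edgeR = 0.000597), with 22.3% of its exonic bases shared with exons of other genes. SGPP1, a sphingosine 1-phosphate phosphatase, fell by 0.16 on the log2 scale (SE 0.0431, adjusted p by edgeR = 0.00304). CH25H and CYP7B1, which make the GPR183 ligand, had at most 1 read in any library.

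Regulators known to set homing receptor expression gave 7 higher and 6 lower of 19 tested among 20, with a median of 0.01. Of all tested genes 13.5% were higher and 15.3% lower, but of the 4632 with a mean under 1 CPM only 278 were called. KLF2, a Kruppel-like factor that activates S1PR1 in mouse T cells, had 1.52, 1.69 and 1.35 CPM in MEF2C hairpin and 2.79, 2.89 and 2.20 CPM in scramble libraries. The MEF2C hairpin libraries were all lower, with a log2 fold change of -0.77 (SE 0.175, adjusted p by edgeR = 0.00065). CD69, a surface protein that binds S1PR1 and removes it from the membrane, had 12.1, 13.4 and 11.8 CPM in MEF2C hairpin and 9.80, 9.91 and 8.99 CPM in scramble libraries (log2 fold change 0.38 with SE 0.0761, adjusted p by edgeR = 0.000134). KLF3, a Kruppel-like repressor named after its value was seen, rose to 2.41 ± 0.326 CPM in MEF2C hairpin against 1.21 ± 0.238 CPM in scramble libraries (SD, n = 3 each; log2 fold change 0.98). FOXO1, which acts upstream of KLF2 in T cells, had 3.74 ± 0.453 CPM in MEF2C hairpin and 3.78 ± 0.579 CPM in scramble libraries (SD, n = 3 each; adjusted p by edgeR = 0.944).

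TCF3, which encodes E proteins known to regulate Ccr9 in mouse T-cell progenitors, had 410, 395 and 391 CPM in MEF2C hairpin and 458, 471 and 447 CPM in scramble libraries (log2 fold change -0.20, SE 0.0222). GATA3, a factor of T-lineage commitment, fell by 0.22 on the log2 scale (SE 0.0252) and RUNX3, a factor of CD8 T cells, rose by 0.22 (SE 0.0247). The p adjusted by edgeR was 2.68e-09 for TCF3, 5.56e-09 for GATA3 and 3.07e-09 for RUNX3.

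Among adhesion partners of homing, 14 of 16 listed were tested, 6 rose and 1 fell, with a median of 0.11. Over all tested genes 13.5% rose and 15.3% fell, but of the 4632 with a mean under 1 CPM only 278 were called. PECAM1, an adhesion receptor of endothelium and leukocytes, had 67.2, 66.1 and 64.7 CPM in MEF2C hairpin and 47.2, 45.6 and 47.5 CPM in scramble libraries (log2 fold change 0.50 with SE 0.0357, adjusted p by edgeR = 7.04e-14). The integrin chains ITGB2 and ITGB1 rose by 0.23 (SE 0.0231) and 0.14 (SE 0.0226). ITGA4, which pairs with ITGB7 to bind gut endothelium, had 187 ± 1.28 CPM in MEF2C hairpin and 196 ± 6.79 CPM in scramble libraries (SD, n = 3 each; log2 fold change -0.07, adjusted p by edgeR = 0.0415), a call that 10 of 13 alternatives lost (adjusted p between 0.0130 and 0.339 over the 13). ITGB7 had 0.718 ± 0.0638 CPM in MEF2C hairpin and 0.728 ± 0.186 CPM in scramble libraries (SD, n = 3 each), and exons of ZNF740 cover 42.1% of its exonic bases.

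**Figure D4:**
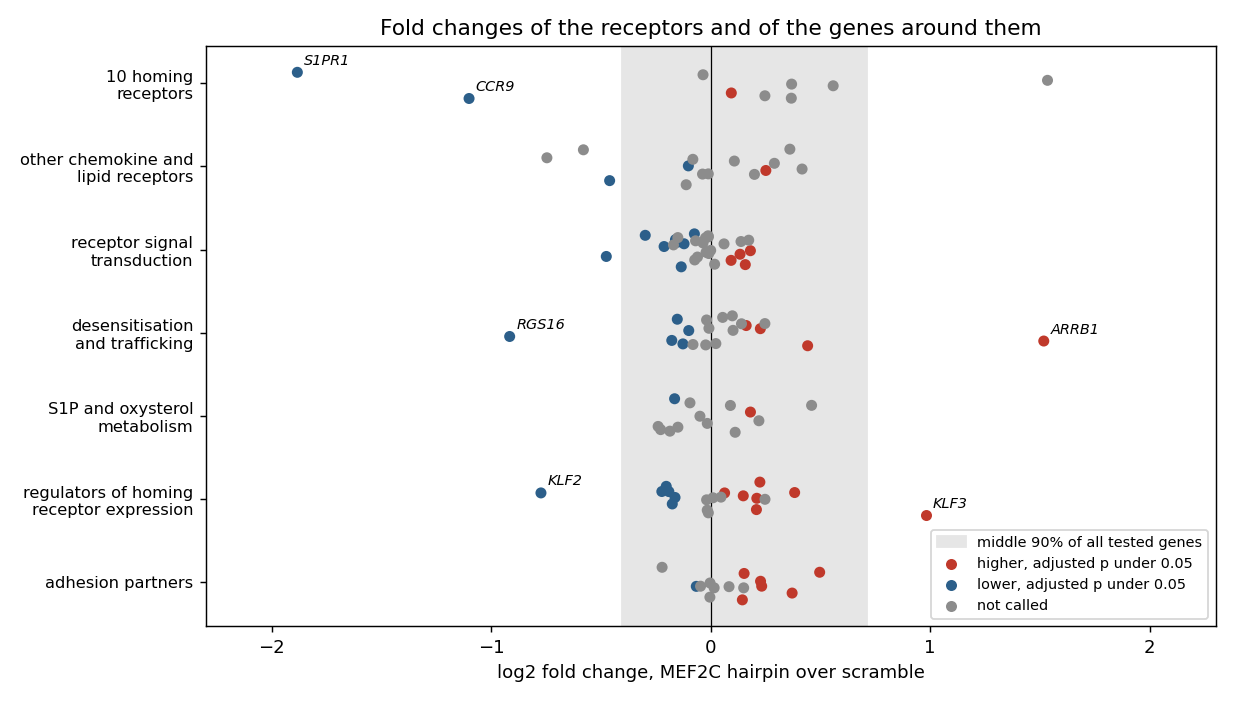
Log2 fold changes (MEF2C hairpin over scramble) of the tested genes of each list, 1 point a gene, coloured by call, over a grey band that holds the middle 90% of all tested genes. CCR9 and S1PR1 lie outside the grey range at -1.10 and -1.88, and so do ARRB1, KLF3, RGS16, KLF2, GNG2 and GPR174 among the called genes of the other lists.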

How the data were processed

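RNA was sequenced from Karpas-45 cells in 6 libraries, 3 with the MEF2C hairpin and 3 labelled scramble control. Per the submitters' processing notes, the authors used Trim Galore, STAR and HTSeq on hg38. Versions, annotation release and strand setting are not given in the sources used here. The deposited values are raw read counts per gene, not normalized. HTSeq summary lines, 19.2 to 31.4% of reads per library, were left out. Gene totals ran from 45560303 to 97077335 reads. Counting error alone is covered by the intervals and the floor of 3 reads.

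Symbols were matched by Ensembl identifier without version. Lengths and positions came from GENCODE 29 on GRCh38, promoters from RefSeq on GRCh38.p14. edgeR 4.0.16 in R 4.3.3 fitted its quasi-likelihood test across all 17677 genes kept by filterByExpr (minimum count 10), with TMM scaling, group as the only term and Benjamini-Hochberg adjustment over all tested genes at 0.05. Each SE was derived from the fold change and its F statistic. CPM use TMM-scaled library sizes, except that pooled CPM with their intervals and the floor in CPM use unscaled gene totals. Levels per length divide the TMM-scaled CPM by merged exon length. The test was tried on simulated counts first. Alternatives were upper-quartile scaling and DESeq2 size factors, filters that were stricter or absent, fits without 1 library, a replicate block, and the tests of limma-voom (limma 3.58.1) and DESeq2 1.42.0.

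The members, gene lists and tests were chosen with earlier results of these data known. Genes named beside the receptors are MEF2C, CCL25, KLF2, FOXO1, CD69, ITGA4, ITGB7 and RGS1, up to 3 called genes per list with the smallest adjusted p, the best expressed and the called coding genes within 500 kb of CCR9, and the 5 coding genes of at least 5 CPM most like CCR9. Some genes covered by this rule or by the lists are not reported here. P2RY8 and CD99, each with 2 identifiers, were not tested. The labels call the replicates technical, so p-values reflect no more than the spread between technical libraries. Within groups, pairs of libraries gave chi-square values of 3.32 to 4.50 per gene, where sampling noise gives about 1, and each library was counted as its own.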

Additional observations from a re-analysis of the deposited data

How the results depend on the processing

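Among the receptors, the calls of CCR9, CXCR4 and S1PR1 held in every alternative that tested them. CCR9 was chosen for its fall in these same libraries, so its call adds no independent support. The log2 fold change of CCR9 ran from -1.14 to -1.07, that of CXCR4 from 0.08 to 0.11 and that of S1PR1 from -2.26 to -1.74. The stricter filter left S1PR1 untested, so 1 receptor was then called lower, and it called CCR8, so 2 were called higher. S1PR4 was called without the filter, without MEF2C hairpin replicate 1 and without scramble replicate 2, which made 2 higher. Leaving out 1 library at a time gave 1 to 2 receptors higher and 2 lower. The log2 fold change of CCR7 reversed to 0.0159 with limma-voom, 0.0567 with a replicate block, 0.00454 without MEF2C hairpin replicate 2 and 0.29 without scramble replicate 3 (-0.298 to 0.29 with libraries left out), and that of CXCR5 to -0.0884 without MEF2C hairpin replicate 1 (-0.0884 to 0.461). Adhesion genes called lower numbered 0 with DESeq2, no filter, the stricter filter, upper-quartile scaling and a replicate block, and 0 to 2 when libraries were left out. Other receptors called higher numbered 2 with the stricter filter and 0 to 2 with libraries left out, and called lower 1 to 2. Sphingosine 1-phosphate genes called higher numbered 1 to 2 and CCR9 neighbours called higher 0 to 1 with libraries left out (FYCO1 without scramble replicate 1). Of the 5 genes most like CCR9, 4 stayed with DESeq2 size factors. The causes were not tested. Same-numbered libraries did not deviate together (correlations -0.01, -0.01 and 0.00), so no pairing by number was seen. Counting noise in genes of low level could hide a small one. With a replicate block, 2308 genes were higher and 2584 lower, against 2386 and 2711 without it. The calls of CD2, IL7R and GPC3 were lost without some single libraries, that of CD2 also with DESeq2 and that of GPC3 also without the filter. The floor of 3 reads, 0.0309 to 0.0658 CPM, lay above GPR183 in 2 of 3 MEF2C hairpin libraries.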
